A study of Mus musculus with 6 samples.

Results

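The genes described here are 38 genes of programmed cell death: the p53 transcription factor with its regulators and targets, the Bcl2 family, the caspases with their activators and inhibitors, and the death receptors. They were taken by name from a list that was chosen with earlier results of these data known. Of the listed genes 35 had a probe on the arrays, out of 12362 genes with a named probe. Ccng1, Bcl2l11 and Casp8 had none paired with their names and were not analysed here. RNA came from crypts of the middle small intestine of 6 C57BL/6 mice aged 120 days, cut out by laser capture, with 5000 to 13000 crypts per mouse. The 3 LOI(+) mice had inherited from their mothers a deletion of the H19 gene (3 kb) with 10 kb upstream of it, which holds the differentially methylated region that controls imprinting. LOI stands for loss of imprinting of Igf2, a growth factor gene whose maternal copy is then active. The 3 LOI(-) mice were wild-type. The deletion was carried in the germ line, not restricted to the gut. Of the 6 mice 4 are labelled male, and the sex of LOI(+) 2 and LOI(-) 3 is not stated. Each mouse had 1 array, with crypt RNA labelled with Cy3 and a reference pooled from 11 cultured mouse cell lines labelled with Cy5.

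In the mitochondrial route to cell death, Bax and Bak1 open the outer mitochondrial membrane, cytochrome c escapes, and Apaf1 assembles with it into the apoptosome, which activates caspase 9 and through it the executioner caspases. Bcl2, Bcl2l1 and Mcl1 hold Bax and Bak1 in check, and the BH3-only proteins relieve that check. Death receptors such as Fas start a second route through Fadd and caspase 8. Stabilised p53 switches on Bbc3, Pmaip1, Bax and other genes after DNA damage, and crypt cells of the small intestine are known to be very sensitive to it.

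The values are log2 ratios of crypt over reference. The median Cy3 signal of a feature was 552 to 603 on the 6 arrays, and 95% of the negative control features lay below 439 to 449. Across genes, r between any 2 arrays was 0.932 to 0.975. LOI(+) 2 agreed least with the other arrays, at a mean r of 0.948, and had the most outlier spots, 146. No probe was paired with H19, so the deleted gene did not check the group labels. Igf2 was at 0.089 ± 0.020 in LOI(+) crypts and 0.092 ± 0.064 in LOI(-) crypts (SD, n = 3 each). Vil1, an actin-binding protein of the brush border, stood 5.82 above the reference and Cdh1, E-cadherin, 4.18 above it on the log2 scale. Of 10 epithelial markers 6 were called above the reference and 0 below, and Krt18, Cdx2 and Hnf4a lay at 0.026, -0.035 and -0.24, while Col1a1, the main collagen of fibroblasts, stood at -2.63. All 35 genes had Cy3 and Cy5 above the negative controls on every array, with 0 saturated and 0 outlier spots. For 16 of them the Cy3 signal stayed under 2 times that control level on every array, and log2 ratios of such dim spots are drawn towards 0. They were Trp53, Mdm2, Mdm4, Aen, Bax, Bcl2, Bid, Bik, Casp9, Xiap, Dffa, Dffb, Endog, Fas, Fadd and Cflar. A level near 0 of such a gene need not mean as much RNA as in the reference. The number of arrays limits the precision of all values.

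LOI(+) and LOI(-) crypts were compared to ask whether the loss of imprinting moved these genes, and none of the 35 passed the test. The smallest adjusted p of a member was 0.804 in limma, with adjustment over 37939 genes and unnamed probes, of which 0 (0%) passed. Unadjusted p lay under 0.05 for 2333 of these in limma and for 2115 in an unmoderated test, which also had 0 after adjustment. LOI(+) had the higher mean for 17 members and the lower mean for 18, with a median difference of -0.0033 on the log2 scale, against 0.0027 over everything tested. At an unadjusted p under 0.05 in limma 3 members were higher in LOI(+), Bak1, Birc2 and Diablo, where 3.92% of everything tested and 4.93% of named genes were. Lower at that level were 0 members, where 2.23% of everything tested and 2.63% of named genes were. The arrays of the groups lay apart with LOI(+) higher for 2 members, Bak1 and Diablo, and 6.39% of everything with a value on all 6 arrays did so. They lay apart with LOI(+) lower for 1 member, Casp9, beside 5.01% of everything. The 95% interval of the difference stayed within 2-fold in either direction for 34 members, all but Casp6, and within 1.5-fold for 31. These are intervals of the measured ratios. For the 16 dim members, whose ratios are drawn towards 0, they do not bound the change in RNA. Whether a gene's ratio reflects fewer cells of a kind or less RNA per cell cannot be told apart in RNA pooled from whole crypts. The plot of the differences shows each gene with its interval.

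**Figure D1:**
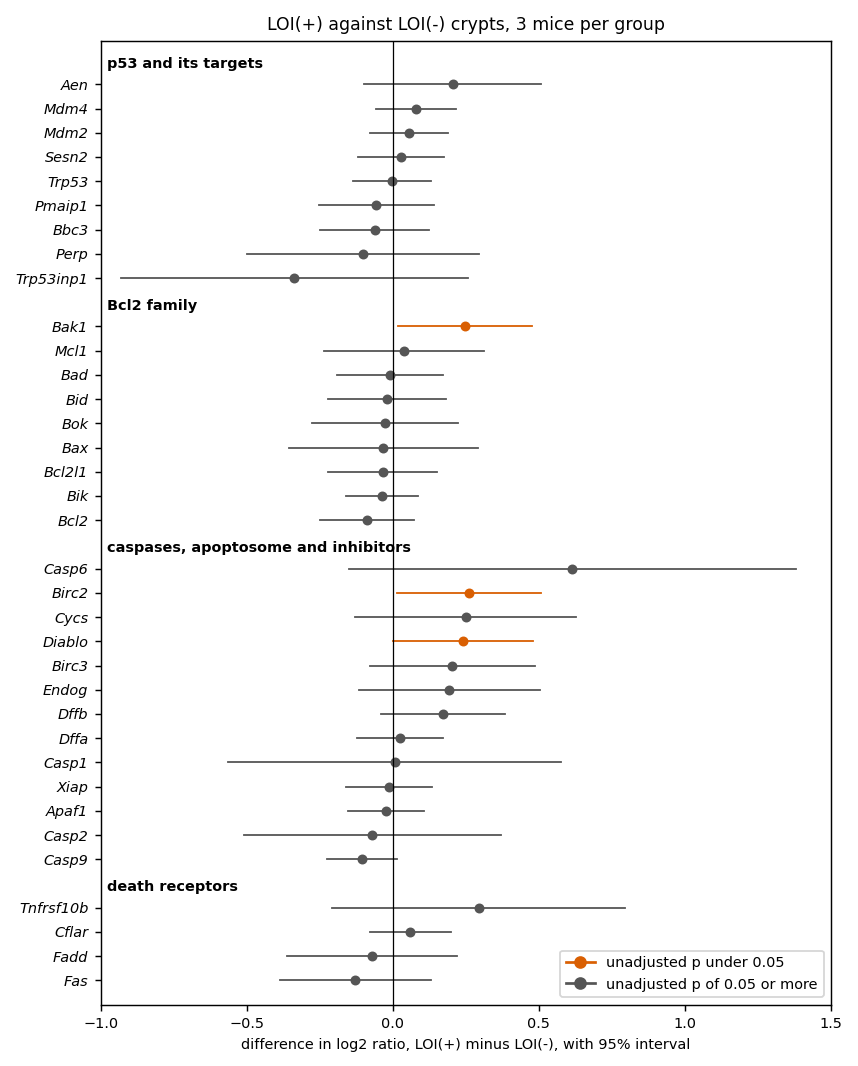
Difference in log2 ratio between LOI(+) and LOI(-) crypts (x axis) for each of the 35 genes, by role, with the 95% interval of limma's moderated fit over 3 mice per group. Bak1, Birc2 and Diablo, in orange, had unadjusted p under 0.05 and adjusted p of 0.804, 0.804 and 0.810 in limma, and the interval of Casp6 is the widest.

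Against the reference, 4 of the 35 genes were called higher in crypts and 1 lower, by limma's treat test of a ratio beyond 2-fold with adjusted p under 0.05. Over everything tested 2.95% was called higher and 3.86% lower, and among named genes 4.89% and 6.13%. Casp1, Perp, Bak1 and Dffb were the higher ones and Bbc3 the lower one, while 28 of the 35 lay within 2-fold of the reference in either direction. The reference is a pool of cell lines that divide in culture, so these levels describe crypts relative to those lines. Dyes were not swapped, so a gene's level against the reference is open to dye bias, which the difference between LOI(+) and LOI(-) shares between both groups. The plot of levels shows all 6 mice for each gene.

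**Figure D2:**
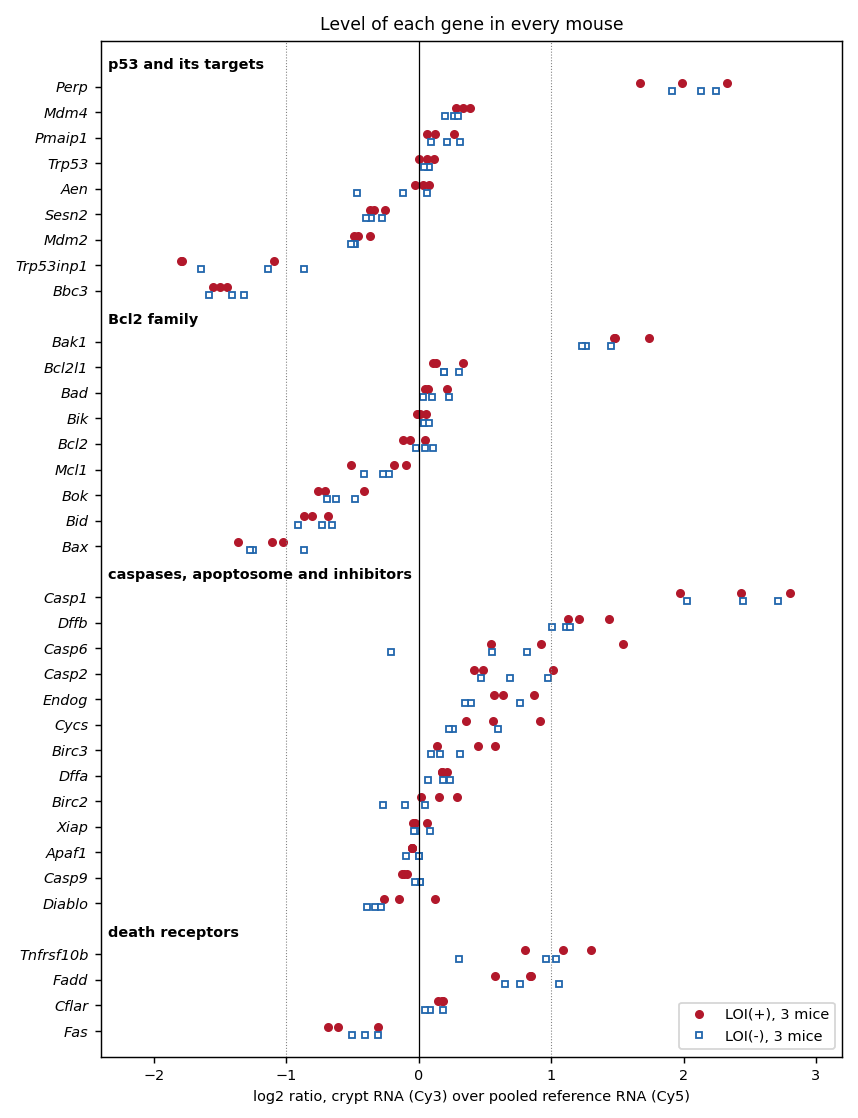
Log2 ratio of crypt RNA over pooled reference RNA (x axis) in every mouse, with LOI(+) as filled circles above LOI(-) as open squares, by role and ordered by mean level. Dotted lines mark 2-fold. Casp1 and Perp lie farthest to the right, at means of 2.40 and 2.05, and Bbc3 farthest to the left at -1.47, and the groups overlap for 32 of the 35 genes.

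Among p53 and its targets, Perp stood high and Bbc3 low in all 6 mice, and 0 of 9 genes reached an unadjusted p under 0.05 between the groups in limma. Perp, a p53 effector that is also a protein of desmosomes, had log2 ratios of 1.67, 2.33 and 1.99 in the LOI(+) mice, against 2.25, 1.92 and 2.13 in the LOI(-) mice. LOI(+) held both the lowest and the highest array, and the groups overlapped. Its level was 2.05 ± 0.084 (SE), 4.13-fold above the reference with an adjusted p of 6.9e-05 in limma's treat, and its difference was -0.10 ± 0.17. Bbc3 encodes Puma, the BH3-only protein by which p53 sets off apoptosis in the crypt after irradiation. Its ratios were -1.50, -1.56 and -1.45 in LOI(+) mice, against -1.32, -1.58 and -1.41 in LOI(-) mice. They were low and close together in every mouse. Bbc3 was called at -1.47 ± 0.040, 2.77-fold below the reference with an adjusted p of 9.14e-05 in limma's treat, and the difference between groups was -0.063 ± 0.080.

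Trp53, p53 itself, was the member with the smallest difference, -0.0033 ± 0.056, with all 6 arrays between -0.0008 and 0.11 and a Cy3 signal of 539 to 644. Mdm2, the ligase that marks p53 for destruction and is a p53 target in turn, had a level of -0.47, or -1.27 by its other probe, and a difference of 0.055 ± 0.057. Mdm4, its relative that silences p53 without being a strong ligase, had a level of 0.29 and a difference of 0.079 ± 0.058. Ranges over the 6 arrays were 0.12 for Trp53, 0.14 for Mdm2 and 0.19 for Mdm4. All 3 were dim, with Mdm2 at a Cy3 signal of 473 to 517 and Mdm4 at 498 to 524, and the other Trp53 probe ran between -0.34 and 0.071. Sesn2, a sestrin of the stress response, had a range of 0.14, a level of -0.33 and a difference of 0.028 ± 0.062. Pmaip1, which encodes the BH3-only protein Noxa, had a level of 0.18 and a difference of -0.057 ± 0.083. Aen, a nuclease induced by p53, had a difference of 0.20 ± 0.13, and LOI(-) 1 at -0.46 lay below the other 5 mice, which spanned -0.12 to 0.078. Without LOI(-) 1 that difference was 0.059, and without LOI(-) 2 it was 0.32, with an unadjusted p of 0.0278 in limma. Trp53inp1, a p53-induced protein with a role in autophagy and cell death, had a wider range. Its probe gave ratios of -1.79, -1.79 and -1.09 in LOI(+) mice, against -1.14, -1.65 and -0.87 in LOI(-) mice. The groups overlapped, the difference was -0.34 ± 0.25, and the level of -1.39 ± 0.13 was not called, with an adjusted p of 0.122 in limma's treat. Without LOI(+) 3 that level was -1.50 and called. The difference was -0.16 without LOI(-) 3, and -0.57 without LOI(+) 3, with an unadjusted p of 0.0388 in limma. It was -0.55 without LOI(-) 2, -0.22 without LOI(+) 1 and -0.22 without LOI(+) 2.

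Of the Bcl2 family, Bak1 stood above the reference and Bax below it, and the arrays of the groups lay apart for Bak1 alone of the 9 measured genes. Both encode effectors that perforate the mitochondrion. Bak1 had ratios of 1.74, 1.48 and 1.47 in LOI(+) mice, against 1.27, 1.24 and 1.45 in LOI(-) mice. All 3 LOI(+) mice lay above all 3 LOI(-) mice, though by only a little between LOI(+) 3 and LOI(-) 3. The difference was 0.25 ± 0.097, a fold of 1.19, with an unadjusted p of 0.0378 and an adjusted p of 0.804 in limma. Without LOI(+) 1 it was 0.16, without LOI(-) 1 it was 0.22 and without LOI(-) 2 it was 0.21, each with an unadjusted p above 0.05 in limma. Its level of 1.44 ± 0.048 was 2.72-fold above the reference, with an adjusted p of 0.000434 in limma's treat.

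Bax, a p53 target as well as an effector, had ratios of -1.37, -1.02 and -1.11 in LOI(+) mice, against -1.25, -1.28 and -0.87 in LOI(-) mice. Each group had mice on both sides of the other's, and the difference was -0.033 ± 0.14. The level of -1.15 ± 0.069 was not called below the reference, with an adjusted p of 0.417 in limma's treat. Bok, a relative of Bax and Bak1, was at -0.61, with a difference of -0.026 ± 0.11.

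The RNA ratios of the survival genes of the family lay near the reference, for Bcl2 at a dim Cy3 signal of 581 to 757. Bcl2, the founding member, had a level of -0.0001 and a difference of -0.090 ± 0.068. Bcl2l1, which encodes Bcl-x, had a level of 0.21 and a difference of -0.035 ± 0.079. Mcl1, a short-lived survival protein, had the brightest Cy3 signal of the survival genes, 3180 to 5186, with a level of -0.28 and a difference of 0.038 ± 0.12. Of the 3 BH3-only genes in this group, Bid, which links death receptors to the mitochondrion, was lowest against the reference at -0.78, and Bbc3, described with the p53 targets, was lower still. Bad and Bik, BH3-only proteins that bind the survival proteins, had levels of 0.11 and 0.034. The differences of Bid, Bad and Bik were -0.020 ± 0.086, -0.012 ± 0.077 and -0.037 ± 0.052. Apart from Bak1 and Mcl1, the means of the family were lower in LOI(+), by 0.090 or less, and the smallest unadjusted p among these 7 was 0.226 in limma.

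Caspases, the apoptosome and their inhibitors formed the group with the highest median difference, 0.17 over 13 measured genes, with LOI(+) higher in mean for 9 of them, and 0 passed the adjusted test in limma. With LOI(+) 2 left out that median was 0.082, and with each other array left out it was 0.12 to 0.22. Casp1 and Dffb were called above the reference, and 10 of the 13 had a level above 0. Casp1, the inflammatory caspase that matures interleukin 1, had ratios of 1.97, 2.80 and 2.43 in LOI(+) mice, against 2.45, 2.02 and 2.71 in LOI(-) mice. Each group had 1 mouse near 2 and others above it, and the groups overlapped. Its level was 2.40 ± 0.12, 5.27-fold above the reference with an adjusted p of 0.000103 in limma's treat, and its difference was 0.0066 ± 0.24. Dffb, the nuclease that cuts DNA between nucleosomes in dying cells, had a level of 1.17 ± 0.045, 2.26-fold above the reference with an adjusted p of 0.0472 in limma's treat. That call was lost without any 1 of LOI(+) 1, LOI(+) 2, LOI(-) 1, LOI(-) 2 or LOI(-) 3, at levels of 1.19, 1.13, 1.19, 1.17 and 1.16. Dffb had a dim Cy3 signal of 583 to 689 and a Cy5 signal of 479 to 516. Its inhibitor and chaperone Dffa had a level of 0.18 and a difference of 0.023 ± 0.062, and Dffb a difference of 0.17 ± 0.090.

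Diablo and Birc2 were the members of this group at an unadjusted p under 0.05. Diablo encodes Smac, a mitochondrial protein that, once released, removes the inhibitor of apoptosis proteins from caspases. It had ratios of -0.26, 0.12 and -0.15 in LOI(+) mice, against -0.33, -0.39 and -0.29 in LOI(-) mice. All LOI(+) mice lay above all LOI(-) mice, with LOI(+) 2 well above the rest. The difference of 0.24 ± 0.10, a fold of 1.18, had an unadjusted p of 0.0490 and an adjusted p of 0.810 in limma. Without LOI(+) 2 it was 0.13, and the unadjusted p in limma was above 0.05 when any array other than LOI(+) 1 was left out, where the difference was 0.27 without LOI(+) 3, 0.24 without LOI(-) 1, 0.22 without LOI(-) 2 and 0.27 without LOI(-) 3. Diablo was also the lowest of the group against the reference, at -0.22 ± 0.051, which was not called.

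Birc2, an inhibitor of apoptosis protein and ubiquitin ligase that acts in TNF receptor signalling, had ratios of 0.014, 0.29 and 0.15 in LOI(+) mice, against -0.11, -0.27 and 0.048 in LOI(-) mice. LOI(-) 3 lay above LOI(+) 1, so the groups overlapped. The LOI(+) mean was higher by 0.26 ± 0.10, a fold of 1.20, with an unadjusted p of 0.0405 and an adjusted p of 0.804 in limma. It was 0.19, 0.26, 0.26 and 0.18 without LOI(+) 2, LOI(+) 3, LOI(-) 1 and LOI(-) 2, with unadjusted p above 0.05 in limma. Birc3, the close relative of Birc2, had a difference of 0.20 ± 0.12. Xiap, which binds and blocks caspases directly, was at -0.012 ± 0.062 for the difference and 0.0030 for the level. Birc2 and Diablo, an inhibitor and an antagonist of inhibitors, thus had their higher means in the same group.

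Casp6, an executioner caspase that cuts nuclear lamins, had the widest spread of the 35 genes, with a range of 1.75 over the 6 arrays. Its ratios were 0.55, 1.54 and 0.93 in LOI(+) mice, against -0.21, 0.82 and 0.56 in LOI(-) mice. LOI(-) 2 and LOI(-) 3 lay above LOI(+) 1, and LOI(-) 1 and LOI(+) 2 stood at the ends. The difference of 0.61 ± 0.32, a fold of 1.53, was the largest of the members and had a 95% interval from -0.15 to 1.38 and an adjusted p of 0.819 in limma. It was 0.84 without LOI(+) 1 and 0.83 without LOI(-) 2, each with an unadjusted p under 0.05 in limma. Without LOI(+) 2 it was 0.35 and without LOI(-) 1 it was 0.32, each with an unadjusted p above 0.05 in limma. Casp9, the initiator caspase of the apoptosome, had ratios of -0.11, -0.085 and -0.12 in LOI(+) mice, against 0.013, 0.0057 and -0.026 in LOI(-) mice. The 3 LOI(+) mice lay below the 3 LOI(-) mice in a narrow band of dim signal, with Cy3 at 498 to 547. The difference, -0.11 ± 0.051, had an adjusted p of 0.819 in limma. By the other Casp9 probe, about as dim at a Cy3 signal of 486 to 526, the groups overlapped, with a difference of -0.059 ± 0.066.

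Apaf1, the scaffold of the apoptosome, had a level of -0.042 and a difference of -0.023 ± 0.055. Cycs, cytochrome c, was the brightest member, with a Cy3 signal of 11820 to 30030. Its ratios were 0.36, 0.92 and 0.56 in LOI(+) mice, against 0.26, 0.23 and 0.60 in LOI(-) mice, so LOI(-) 3 lay above 2 of the LOI(+) mice. The difference was 0.25 ± 0.16, and its 2 other probes gave 0.30 ± 0.19 and 0.39 ± 0.28. Without LOI(+) 2 it was 0.097, and without LOI(+) 1 it was 0.38, with an unadjusted p of 0.0485 in limma. Endog, a nuclease held in the mitochondrion until it is released, had a difference of 0.19 ± 0.13 and a level of 0.60. Casp2, an initiator caspase tied to DNA damage, had a difference of -0.070 ± 0.19 and a level of 0.68. The plot by mouse sets 6 of these genes side by side.

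**Figure D3:**
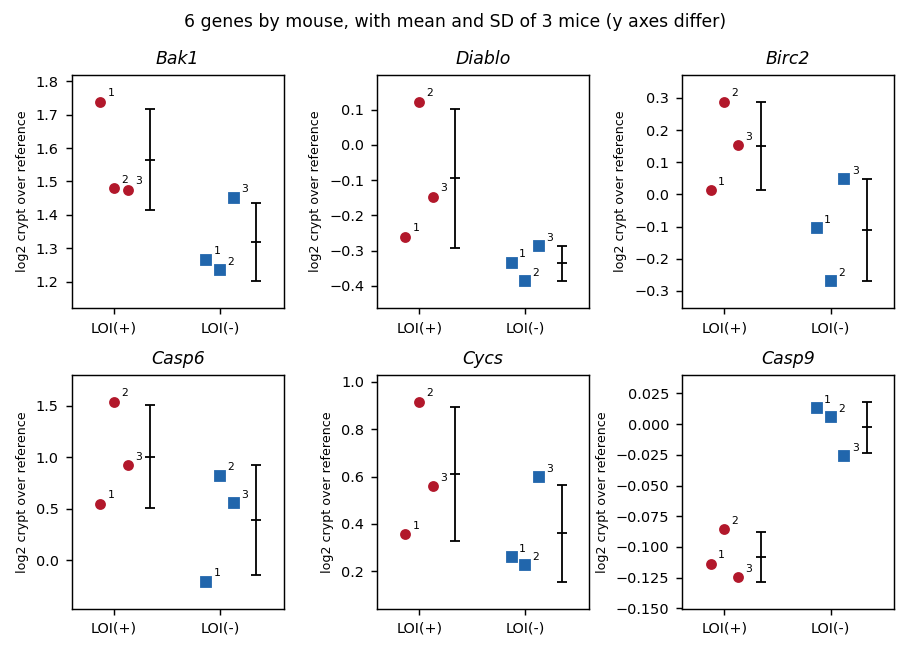
Log2 ratio of crypt over reference (y axis, different in each panel) for 6 genes, with each mouse as a numbered point and the mean and SD of 3 mice beside it, LOI(+) left of LOI(-). All LOI(+) points lie above all LOI(-) points for Bak1 and Diablo and below them for Casp9, and the groups overlap for Birc2, Casp6 and Cycs.

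The death receptor genes gave 0 calls, with 2 of 4 means higher and 2 lower in LOI(+). Tnfrsf10b, the mouse receptor for the death ligand TRAIL, was the highest of the 4 against the reference. It had ratios of 1.30, 1.09 and 0.80 in LOI(+) mice, against 1.04, 0.96 and 0.31 in LOI(-) mice. LOI(-) 3 lay far below the rest, LOI(-) 1 and LOI(-) 2 lay above LOI(+) 3, and the difference of 0.29 ± 0.21 had an adjusted p of 0.843 in limma. It was 0.062 without LOI(-) 3, 0.18 without LOI(+) 1 and at most 0.43, without LOI(-) 1. Fas, the receptor of Fas ligand, was the lowest of the 4, with ratios of -0.61, -0.31 and -0.69 in LOI(+) mice, against -0.41, -0.51 and -0.31 in LOI(-) mice. Its groups overlapped, with a level of -0.47 ± 0.055 and a difference of -0.13 ± 0.11. Fadd, the adaptor that recruits caspase 8, had a level of 0.79 and a difference of -0.071 ± 0.12. Cflar encodes c-FLIP, which competes with caspase 8 for the adaptor, and had a level of 0.14 and a difference of 0.060 ± 0.059.

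Mice of 1 group also differed from each other. The range over the 6 arrays had a median of 0.38, and it passed 0.5 for 13 of the 35 genes and 1 for Casp6 alone. That range spans both groups, so it also holds any difference between them, as for Bak1 and Diablo, whose groups lay apart. In the caspase group LOI(+) 2 was the highest of the 6 arrays for 8 of 13 genes, and LOI(-) 2 the lowest for 6. The mean of these 13 genes, each centred on its own mean over the 6 arrays, was -0.069, 0.22 and 0.054 in the LOI(+) mice, against -0.13, -0.12 and 0.045 in the LOI(-) mice. LOI(-) 3 thus lay above LOI(+) 1 and beside LOI(+) 3, and LOI(+) 2, the array that agreed least with the others, stood highest. In the Bcl2 family LOI(-) 3 was the highest array for 5 of 9 genes and LOI(+) 1 the lowest for 4. The corresponding means of the family were -0.046, 0.019 and 0.032 in LOI(+) mice, against -0.054, -0.040 and 0.089 in LOI(-) mice.

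**Figure D4:**
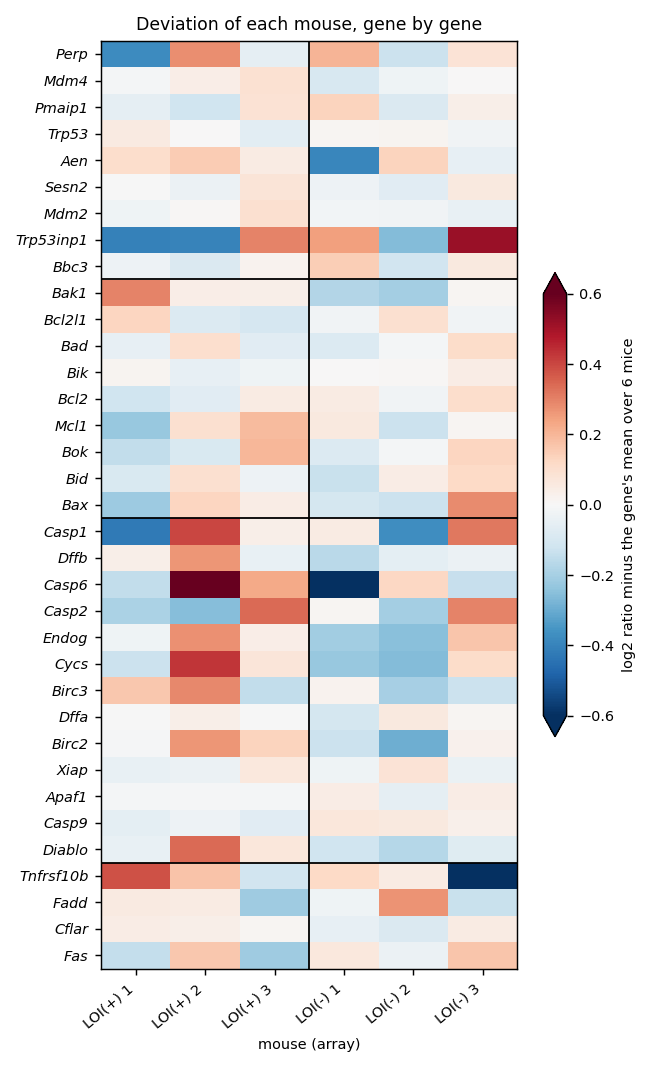
Log2 ratio of each mouse minus the gene's mean over the 6 mice (colour), with genes down the page by role and level, and LOI(+) mice left of LOI(-) mice. LOI(+) 2 is the highest array for 8 of the 13 caspase, apoptosome and inhibitor genes in the third block, and LOI(-) 1 stands far below the others for Casp6.

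Markers of the cells that such a dissection holds moved as follows beside these values. Of 10 markers of crypt epithelium, 9 had a lower mean in LOI(+), 2 of them at an unadjusted p under 0.05 in limma, and their centred means were -0.054, -0.14 and -0.070 in LOI(+) mice, against -0.0029, 0.071 and 0.19 in LOI(-) mice. The 4 measured markers of proliferation all had a higher mean in LOI(+), 0 at that level, with centred means of -0.093, 0.16 and 0.25 in LOI(+) mice, against -0.15, -0.21 and 0.051 in LOI(-) mice. In both the proliferation markers and the caspase group LOI(+) 1 lay below the other LOI(+) mice and LOI(-) 3 above the other LOI(-) mice. The order was not particular to them. It was the same in the p53 group, the Bcl2 family and the villus, fibroblast, endothelial and T and NK cell lists. The 3 markers of villus enterocytes had a higher mean in LOI(+). Their summed Cy3 signals, like all sums here raw and not normalized, were 25631 to 37464 in LOI(+) mice, against 20557 to 25291 in LOI(-) mice. Fabp2 made up most of these sums, with a Cy3 signal of 19080 to 35320 over the 6 arrays. Its normalized ratios overlapped between the groups, with a difference of 0.19 ± 0.13. For 5 myeloid markers the sums were 17785 to 35612 in LOI(+) mice, against 20603 to 68180 in LOI(-) mice. Lyz2, a lysozyme gene, made up most of these sums, with a Cy3 signal of 12570 to 61110 over the 6 arrays and a level of 4.01, while Adgre1 and Cd14 were called below the reference at -1.97 and -1.41. Fibroblast sums of 5 markers were 3175 to 4110 in LOI(+) mice, against 3136 to 4424 in LOI(-) mice. Those of 7 T and NK cell markers were 6810 to 7642 in LOI(+) mice, against 6324 to 7326 in LOI(-) mice, and those of 5 B and plasma cell markers were 5322 to 5802 in LOI(+) mice, against 4675 to 6027 in LOI(-) mice. The sums of 3 smooth muscle markers were 5142 to 5619 in LOI(+) mice, against 5038 to 6157 in LOI(-) mice, and those of 3 endothelial markers were 1503 to 1716 in LOI(+) mice, against 1553 to 1714 in LOI(-) mice. The 3 Paneth cell and 3 goblet cell markers were all lower in mean in LOI(+), and the 3 stem cell markers were split, with 2 means higher and 1 lower. Itln1 of the Paneth list was saturated in Cy3 on all 6 arrays. Its crypt signal could therefore show no difference between the groups, and its value of -0.026 cannot be read as one. Outside the epithelium, proliferation and stem cell lists, 37 markers were measured. At an unadjusted p under 0.05 in limma 1 of them was higher in LOI(+) and 4 were lower. Of everything tested, 3.92% was higher and 2.23% lower at that level. The higher one was Ada of the villus list, at 0.27. Lower were Muc2 and Tff3 of the goblet list, at -0.19 and -0.14, and Tagln of smooth muscle, at -0.36. Cd3g of T and NK cells was lower too, at -0.29. The fibroblast, myeloid, B and plasma cell, endothelial, Paneth and stem cell lists had 0 markers at that level. The part of these cells in the values of the death genes was not tested.

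Of the 35 genes, 12 were read by more than 1 probe, and the probes bear on what can be said of Bak1, Birc2 and Diablo. The brightest probe was used for each gene. The other Bak1 probe gave a level of 0.10 against the reference and a difference of 0.023 ± 0.066, where the one used gave 1.44 and 0.25. The other probes of Birc2 and Diablo gave differences of 0.025 ± 0.073 and 0.074 ± 0.11. They had the same sign as the probes used and were smaller, and their signals were dim, at 535 to 635 for Bak1, 530 to 610 for Birc2 and 473 to 496 for Diablo, where the probes used reached 9068, 1917 and 1364. Over all 13 pairs of a used and another probe, 2 had differences of opposite sign, Mdm2 and Fas, and 0 of the other probes had an unadjusted p under 0.05 in limma. For Fas the other probe gave 0.14 ± 0.15 where the probe used gave -0.13. The other Mdm2 probe gave -0.011 ± 0.051 where the probe used gave 0.055. The levels of the 2 Mdm2 probes differed too. The other probe, with a Cy3 signal of 473 to 497, had a level of -1.27 that was called below the reference with an adjusted p of 0.000186 in limma's treat, where the probe used, at 473 to 517, had -0.47 and was not called.

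Levels against the reference differed by over 1 between probes for 3 genes, Bak1, Tnfrsf10b and Trp53inp1. The other Tnfrsf10b probe gave -0.10, where the one used gave 0.92, and its difference was 0.10 ± 0.064. The other Trp53inp1 probe gave -0.31, where the one used gave -1.39, and its Cy3 signal exceeded the negative controls on only 4 of 6 arrays. The sign of the level was opposite for Tnfrsf10b, for Trp53, at -0.19 with its other probe, and for Casp9, at 0.053. The other Casp1 probe gave 2.00, close to the 2.40 of the probe used. So that the features can be told apart, the first 30 of the 60 bases of each probe are given for these 3 genes with levels over 1 apart and for Birc2 and Diablo, in lower case, 5′ to 3′ as the array files list them. The genes lie on chromosomes 17 (Bak1), 14 (Tnfrsf10b), 4 (Trp53inp1), 9 (Birc2) and 5 (Diablo), by RefSeq names of GRCm38.p6. The position of a probe in its transcript was not determined here.
Bak1, probe used: gtgtttttctctgtcttgcacaacataggg
Bak1, other probe: cccagaaaactaggtttgtttttatactac
Tnfrsf10b, probe used: agaccaaggggcgtctctttccactgatgg
Tnfrsf10b, other probe: ctcctggttccagtagtgctgctgattgga
Trp53inp1, probe used: atgggcacaatgttttctctcatcaacttg
Trp53inp1, other probe: ttccagccaagtgaagaccaatcgcctagt
Birc2, probe used: gtgagaaatatattaaagtgtttcttttaa
Birc2, other probe: acactctgctcgattgaggacatttctgta
Diablo, probe used: ctgctgtatccaaaggaagagaagtttagt
Diablo, other probe: aacgctgtttctcagaattgataaaaccat
Over the full 60 bases the longest run that both probes of a gene share was 7 bases for Bak1, 6 for Birc2 and 5 for the other 3 genes. The probe used for Bak1 and its other probe had the same G and C content, 38.3%, while those of Trp53inp1 had 33.3% and 45.0%.

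**Figure D5:**
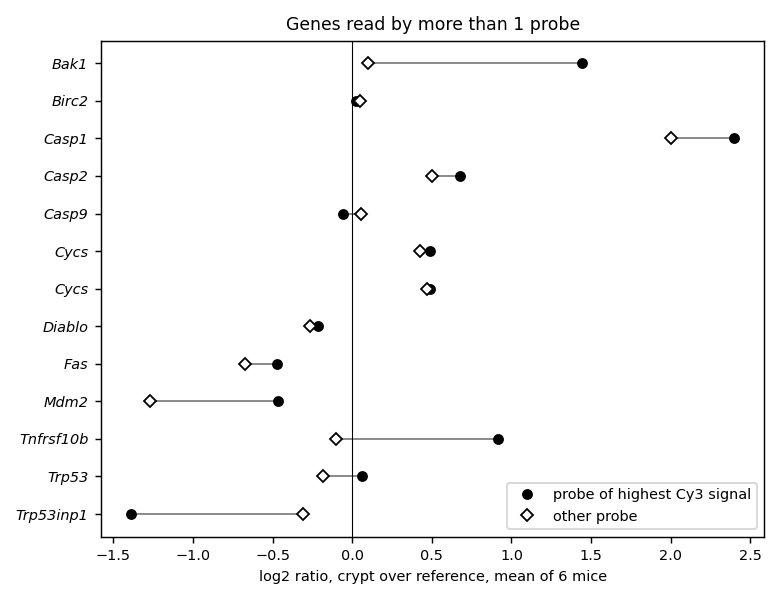
Log2 ratio of crypt over reference, mean of 6 mice (x axis), for the probe of highest Cy3 signal (filled circle) and the other probe (open diamond) of each of the 12 genes with more than 1, with 2 lines for Cycs. The probes of Casp1, Casp2 and Cycs lie close together, and those of Bak1, Tnfrsf10b and Trp53inp1 lie more than 1 apart.

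Further genes of the same pathways were read from 5 lists, in which 54 of 79 genes had a probe, and none passed an adjusted p of 0.05 in limma. Among 14 measured p53 targets beyond the members, 1 was higher and 2 were lower in LOI(+) at an unadjusted p under 0.05 in limma. Of everything tested, 3.92% was higher and 2.23% lower at that level. Cdkn1a, which encodes p21, a brake on the cell cycle and a classic p53 target, had ratios of -1.84, -1.79 and -2.21 in LOI(+) mice, against -1.16, -1.28 and -1.20 in LOI(-) mice. All LOI(+) mice lay below all LOI(-) mice, with a difference of -0.73 ± 0.12 and an adjusted p of 0.801 in limma. Gdf15, a stress cytokine, had a difference of -0.43 ± 0.12, and Ddb2, a sensor of ultraviolet damage, one of 0.26 ± 0.084, also without overlap. Of everything with a value on all 6 arrays, 5.01% lay apart with LOI(+) lower and 6.39% with LOI(+) higher. Cdkn1a, Zmat3, Phlda3 and Plk2 were called below the reference, at -1.58, -1.94, -3.59 and -2.87, and 0 of the 14 above it. Over everything tested 3.86% was called below and 2.95% above. The median level of the 14 was -0.70, and that of the 9 members of the p53 group was -0.073, with -0.0013 over everything tested.

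Among 10 regulators and relatives of p53, 0 reached an unadjusted p under 0.05 in either direction in limma, with 8 higher and 2 lower in mean in LOI(+). Of 8 further Bcl2 family genes, Hrk, a BH3-only gene, had a difference of -0.14 ± 0.057 and was the 1 at that level. Of 13 further caspase, inhibitor and mitochondrial genes 2 were higher at that level. They were Birc5, the survivin protein of dividing cells, at 0.62 ± 0.23, and Htra2, a mitochondrial protease that like Smac binds inhibitor of apoptosis proteins, at 0.30 ± 0.11. Naip1, a sensor of bacterial proteins, was among the genes called above the reference, at 1.76, with a difference of -0.0019 ± 0.14. Of the regulators and relatives of p53, 1 was called above the reference and 1 below. Of the further Bcl2 family genes 0 were called above and 1 below. Over everything tested 2.95% was called above and 3.86% below. Of 9 further death receptor genes 0 reached the level in either direction. The share of everything tested at that level was 3.92% higher and 2.23% lower in LOI(+).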

How the data were processed

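The deposited files hold spot intensities of both channels from Agilent Feature Extraction, as their headers say (per the file headers). The deposited table of log10 values, used as an alternative, followed log10 Cy3 minus log10 Cy5 plus a mean log10 Cy5, which it matched at an r no lower than 0.998 over 41174 features. That r includes the differences in brightness between features. With each feature centred on its mean over the arrays, r with the log ratio was lower. It was 0.834 for LOI(-) 3 and 0.967 to 0.985 for the other arrays. The submitters' own test is not known here. Images of the LOI(-) arrays were extracted first, so the order and the group cannot be told apart.

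With limma 3.58.1 under R 4.3.3, mean signals were corrected by normexp (offset 50) on the local background and normalized by loess within each array, control features at weight 0 and outlier-flagged spots left out. A RefSeq table of GRCm38.p6 named 15429 of 41006 probes (37.6%), and per gene the probe with the highest mean Cy3 signal was taken. Groups were compared with lmFit and eBayes, levels with treat at a log2 ratio of 1, two-sided, with p-values adjusted by Benjamini-Hochberg over 37939 named genes or unnamed probes, at 0.05. Each array is a separate animal. The fits were tested on simulated data. All members are named. Arrays are given singly for members at unadjusted p under 0.05 or without overlap, and for the highest and lowest in level of each role group. Trp53inp1, Casp6 and Cycs were added after their values were seen, for their spread or signal. Members, lists and rules were chosen with earlier results of these data known. A gene of the further lists is not reported here.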

Additional observations from a re-analysis of the deposited data

How the results depend on the processing

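Under 19 alternatives of background correction, normalization, values used, filters, probes, model and arrays left out, 0 of the tested genes and probes and 0 members passed an adjusted p of 0.05 in limma, while the count at an unadjusted p under 0.05 ran between 1496, with LOI(+) 2 left out, and 3348, with LOI(+) 1 left out. The count of members at that level, 3, was 0 with normexp without an offset, 0 with all probes of a gene averaged, 1 in the unmoderated test (Casp9) and 0 to 4 when an array was left out, with 0 without LOI(-) 1. Bak1 was below 0.05 in 12 of the 19, with differences from 0.14 to 0.34, Birc2 in 11, also from 0.14 to 0.34, and Diablo in 5, from 0.13 to 0.32. Deviations of same-numbered arrays correlated with r of -0.088, -0.25 and 0.35, and those of differently numbered arrays with r from -0.39 to 0.45. So few correlations cannot decide whether the replicate numbers pair the mice. With the number as a replicate block 3 members reached an unadjusted p under 0.05 in limma, Casp6, Tnfrsf10b and Trp53inp1, none of which was among Bak1, Birc2 and Diablo, with 2462 calls at that level over everything tested against 2333. The difference kept its sign under all 19 for 19 members and turned under at least 1 for Trp53, Sesn2, Perp, Bax, Bok, Bcl2l1, Mcl1, Bid, Bad, Casp1, Casp2, Apaf1, Xiap, Dffa, Fas and Fadd.

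Members called above the reference, 4, were 3 or 4, and Casp1 and Perp were called in 19 of 19. Dffb lost its call in 8, among them no background correction at 0.42, and Bak1 lost it with median centring at 0.96 and with all probes averaged at 0.77. Members called below, 1, were 0 without background correction, where Bbc3 stood at -1.06. They were 3 with median centring, 2 with the replicate block and 1 or 2 when an array was left out. Under the unmoderated setting they were also 3. There the level was tested by limma's moderated p against a log2 ratio of 0, not beyond 2-fold, so its level calls are looser. Trp53inp1 and Bax were those gained. The sign of the level held under all 19 for 22 members. Aquantile normalization leaves the ratios as they are, so it gave the same values. Causes were not tested. Dim signal limits the ratios of the 16 members under 2 times the negative controls.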
